A study of Mus musculus with 1152 samples.

Results

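Reads of 8 neuronal mRNAs were followed through 1152 wells of sorted fluorescent brain cells. Of the 46517 genes counted, these were Camk2a, Ddn and Nrgn, whose mRNAs are carried into dendrites, and Kif5a, Nrsn1, Adcy1, Snap25 and Syt1, here called the other members. They were picked by name because earlier results of the same wells had shown them beside mitochondrial reads, so their levels are descriptions and carry no test. Wells were grouped by the share of their reads that came from the 37 genes whose names begin with mt-, the genes of the mitochondrial genome. The groups were at least 10% (246 wells), 5 to 10% (172), 2 to 5% (273) and under 2% (461), and wells of low depth were kept.

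All wells share 1 background. They held fluorescent cells of adult C57BL/6 mice of both sexes, sorted from the brain of 2 lines, Pdgfra-H2BGFP and Tagl-CREERT2;Ai14. The first carries a green fluorescent histone under control of Pdgfra, a receptor gene of fibroblasts and oligodendrocyte precursors, and the second a tamoxifen-dependent recombinase, named with Tagl in the labels, and a red reporter. Vessel fragments had been pulled down with beads against CD31, an endothelial surface protein, and digested before the sort, and cDNA was made by SMART-seq2, which amplifies full-length transcripts of a single cell per well. No label ties a well to a line, an animal or a plate, so the wells are 1 sample, cells are not replicates, and no p-value or standard error can be given. The well names form 3 sets of 384, written 1025s_182s, 600s_182s and 613s.

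Neurons keep part of their mRNA far from the nucleus, and local translation in dendrites supplies proteins of the synapse. Camk2a encodes the alpha subunit of calcium/calmodulin-dependent protein kinase II, a central enzyme of synaptic plasticity and a standard example of a dendritic mRNA. Ddn encodes dendrin, a postsynaptic protein, and Nrgn encodes neurogranin, which binds calmodulin in dendritic spines. Among the other members, Kif5a is a heavy chain of the motor kinesin-1, Nrsn1 encodes neurensin-1, a membrane protein of neurites, and Adcy1 is an adenylyl cyclase stimulated by calcium and calmodulin. Snap25 is a SNARE protein of the presynaptic membrane, and Syt1 is the calcium sensor of synaptic vesicle release. All 8 are widely used as genes of neurons.

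The mt- bins differed in depth and in set before any member is considered. Depth ran from 2561 to 1451280 reads, and median depth was 430067 reads under 2%, 192246 at 2 to 5%, 46345 at 5 to 10% and 36161 at 10% or more. Wells under 50000 reads numbered 172 of 246 in the highest bin and 0 of 461 in the lowest. The highest bin drew 124 wells from 1025s_182s, 6 from 600s_182s and 116 from 613s, against 113, 245 and 103 in the lowest. Most wells also carried markers of several cell types. Among the 857 wells with at least 50000 reads, a class was counted as present where at least 3 of its fixed markers reached 20 CPM (reads of a gene per 1000000 reads of the well). The median number of classes present was 4 in the highest bin and 3 in the lowest. Oligodendrocyte markers were present in all 74 such wells of the highest bin and in most of the others. They were found in 435 of 461 wells under 2%, 225 of 238 at 2 to 5% and 84 of 84 at 5 to 10%. Median depth of the 74 and the 461 wells was 67505.5 and 430067 reads, so 20 CPM took fewer reads in the highest bin. The 2 medians of classes are therefore not like for like. Stages of the oligodendrocyte lineage counted as separate classes, and the astrocyte list held 10 markers where most lists held 5. Labels of single cell types therefore cannot be put on these wells from markers alone.

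SMART-seq2 starts its cDNA at the poly(A) tail, so the 3′ ends of the members are shown for reference. The poly(A) signal AATAAA lay in the last 150 bases of 7 of the 8 transcripts, all but Snap25, and in 66.1% of the 18289 genes with a 3′ UTR of at least that length. The element TTTTAT, which binds cytoplasmic polyadenylation factors and occurs in some localised mRNAs, lay in that window of 2 members, Adcy1 and Syt1, and in 18.5% of all genes. That exact sequence was found in 0 of the 3 dendritic members, in a single annotated transcript per gene. Other forms of the element were not searched, so this does not show that these mRNAs lack it. Only the transcribed strand was searched, and the 2 motifs do not overlap in the sequences below. The lines are the last 30 bases of the annotated transcripts in GRCm38 for 2 dendritic and 2 other members, with AATAAA in capitals, followed by the sites of TTTTAT, with that element in capitals.
Ddn, chr15:98803777-98803806, minus strand: gcccAATAAAtctactcgcccctttatgca
Nrgn, chr9:37544492-37544521, minus strand: gtgaatAATAAAgaggaatgtctaagtgta
Kif5a, chr10:127225696-127225725, minus strand: tatctttaaAATAAAataacttcgatgacg
Nrsn1, chr13:25252040-25252069, minus strand: aatggaagAATAAAtgaagcaattagtggt
Syt1, chr10:108497650-108497679, minus strand: actcaataaaaatgTTTTATttcctgttga
Adcy1, chr11:7178357-7178386, plus strand: aatttgtcctatTTTTATttaaaaagtgaa
In the first 4 transcripts 15 to 20 bases followed the signal. A match of letters says nothing about use of the site.

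The members stood higher in wells of higher mt- share. The 3 dendritic mRNAs summed to 200 CPM in wells under 2%, 687 CPM at 2 to 5%, 3514 CPM at 5 to 10% and 3651 CPM at 10% or more. The 5 others summed to 418, 1346, 6246 and 6680 CPM in the same order of bins. Both sums were several times larger in each bin than in the one before it up to 10%, and little larger beyond. All 8 genes together made up 1.03% of all reads in the highest bin, against 0.062% in the lowest. Because the members were picked on this contrast, the size of the difference supports nothing further.

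Camk2a had 3207 CPM of summed counts in the highest bin (95% counting interval 3173 to 3242), against 179 CPM in the lowest (177 to 181). Its single wells ran from 0 to 27307 CPM with a median of 320 in the highest bin, and from 0 to 3364 CPM with a median of 14.3 in the lowest. The ranges overlap over their lower part, and the 5 richest wells held 19.6% of the reads in the highest bin. These intervals, here and below, cover counting error only, since PCR copies of 1 molecule are counted as separate reads. The gene lies at chr18:60925618-60988152 on the plus strand.

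Ddn and Nrgn were rarer. Ddn had 325 CPM in the highest bin and 15.5 CPM in the lowest, with the top well at 7970 and 1340 CPM. Nrgn had 118 CPM in the highest bin and 5.48 CPM in the lowest, with the top well at 1874 and 125 CPM. Both were highest at 5 to 10%, at 463 CPM for Ddn and 125 CPM for Nrgn. The median well held 0 reads of either gene in every bin. Exons of Ddn overlap those of B130046B21Rik on the opposite strand in GENCODE vM21, and without a stated strand setting reads of the pair cannot be told apart. Ddn spans chr15:98803777-98809490 and Nrgn chr9:37544492-37552904, both on the minus strand.

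Kif5a was the most abundant member in the pooled wells of the highest bin, also per kilobase of exon, at 761 CPM per kb. It had 5320 CPM in the highest bin (5275 to 5365), against 315 CPM in the lowest (313 to 317). Single wells of the highest bin ran from 0 to 38082 CPM with a median of 591, and those of the lowest from 0 to 3407 CPM with a median of 40.0. Nrsn1 had the largest ratio of the 8, with 952 CPM in the highest bin and 31.7 CPM in the lowest. Its median well had 29.1 CPM in the highest bin and 0 in the lowest, and its top well had 26865 and 970 CPM. Kif5a spans chr10:127225696-127263348 and Nrsn1 chr13:25252040-25270502, both on the minus strand.

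Adcy1, Snap25 and Syt1 followed at a distance. Adcy1 had 132 CPM in the highest bin and 19.3 CPM in the lowest. Snap25 had 234 and 46.8 CPM in the same order, and Syt1 had 42.1 and 4.89 CPM. Their levels peaked in the bin of 5 to 10%, at 173 CPM for Adcy1, 385 CPM for Snap25 and 44.7 CPM for Syt1. The median well of the highest bin had 0 reads of each, and a few wells decided the sums. A single well supplied 41.4% of the Adcy1 reads, 36.3% of the Syt1 reads and 17.7% of the Snap25 reads of that bin, against 4.78% for Camk2a and 3.76% for Kif5a. Adcy1 spans chr11:7063489-7178506 and Snap25 chr2:136713453-136782428 on the plus strand, and Syt1 chr10:108497650-109010982 on the minus strand.

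**Figure D1:**
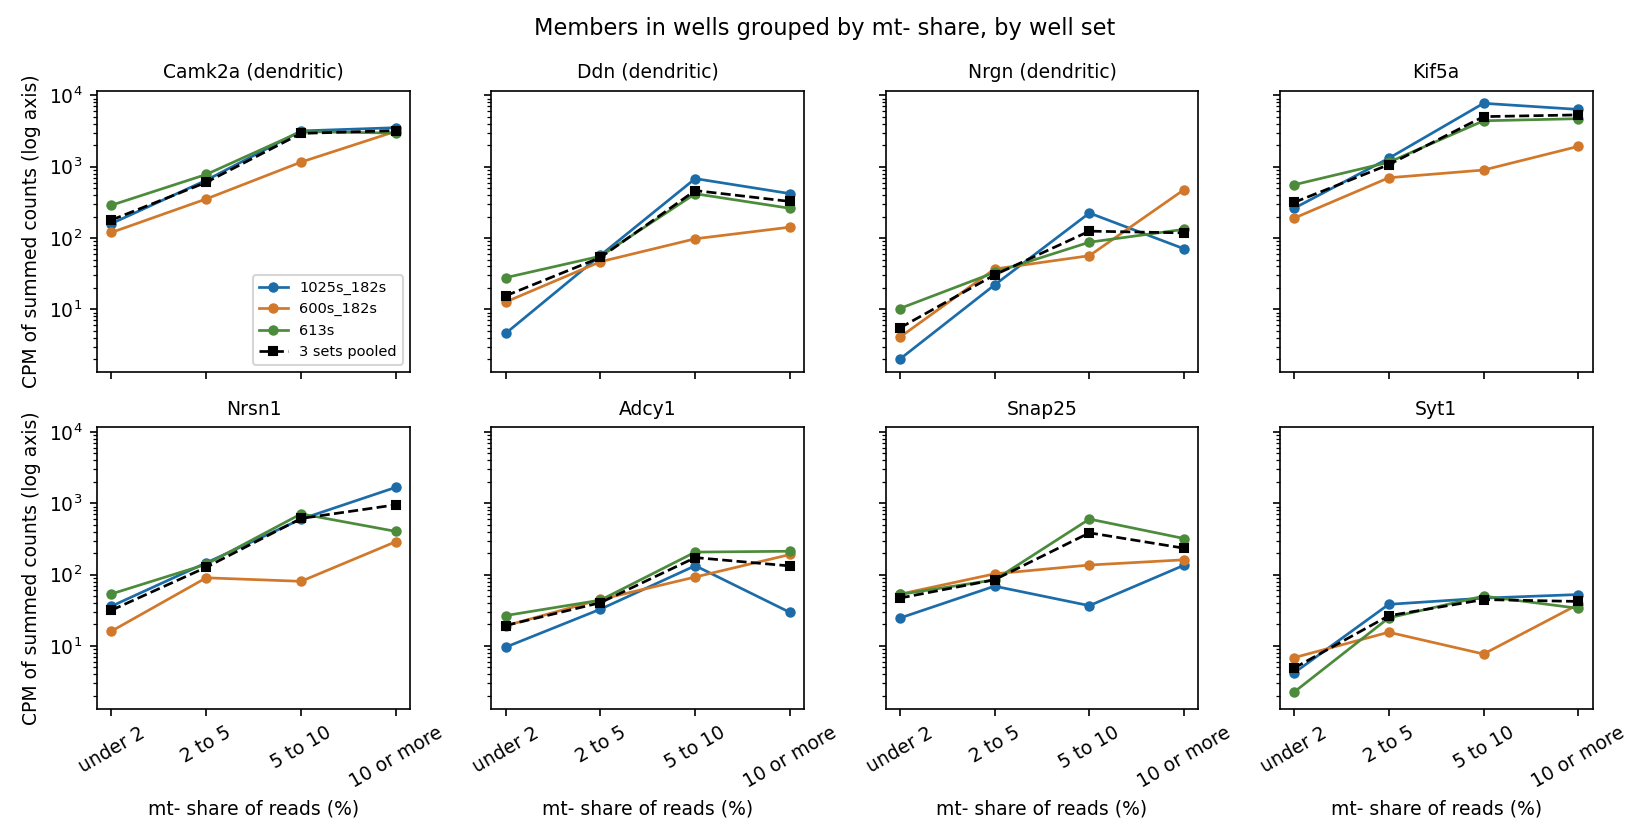
CPM of summed counts (log axis) of each member against the bin of mt- share, for each well set (coloured lines) and for the 3 sets pooled (black, dashed). Every line ends higher at 10% or more than it starts under 2%, and Camk2a runs at 179, 604, 2926 and 3207 CPM in the pooled wells.

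On the log2 scale, with 1 CPM added to each side, the ratio of the highest to the lowest bin was 4.16 for Camk2a, 4.31 for Ddn, 4.20 for Nrgn, 4.07 for Kif5a and 4.87 for Nrsn1. It was 2.71 for Adcy1, 2.30 for Snap25 and 2.87 for Syt1. A log2 ratio of 1 or more, with 10 CPM or more in the bin of the larger value, was called higher, which is a rule of size and not a test. All 8 members met it, as did 11.6% of the 12064 genes tested, and nothing is read from this count because the rule chose the members on the same contrast. The median of all tested genes was lower in the highest bin, by a log2 ratio of -1.04, and relative to it the members stood 3.34 (Snap25) to 5.91 (Nrsn1) higher. With mt- reads left out of the totals, the log2 ratio was 4.39 for the dendritic sum and 4.20 for the others.

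Levels can be compared between genes only per length. Per kilobase of annotated exon, the order in the highest bin was Kif5a, Camk2a (430 CPM per kb), Nrsn1 (340), Ddn (86.1), Nrgn (81.2), Snap25 (34.5), Adcy1 (10.6) and Syt1 (5.05). The order was not fixed across sets. Kif5a came first in 1025s_182s, at 908 CPM per kb, and in 613s, at 673, but in the 6 wells of 600s_182s it stood at 276, behind Camk2a at 420 and Nrgn at 329. Nrsn1 stood above Camk2a in 1025s_182s alone, at 598 against 472 CPM per kb. Neighbours such as Ddn and Nrgn, or Adcy1 and Syt1, changed places between sets.

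The split into dendritic and other mRNAs did not separate the members. Dendritic mRNAs made up 32.4% of all member reads under 2%, 33.8% at 2 to 5%, 36.0% at 5 to 10% and 35.3% at 10% or more. The exact binomial interval was 35.0 to 35.6% in the highest bin and 32.1 to 32.6% in the lowest, a difference of 2.98 percentage points. Single wells varied far more. Among wells with at least 100 member reads, the median dendritic share was 28.8% in the highest bin (quartiles 4.71 and 58.1%, 119 wells) and 21.8% in the lowest (2.91 and 56.0%, 216 wells). Camk2a and Kif5a alone held 82.5% of the member reads in the highest bin and 80.0% in the lowest, so the share mostly reads their ratio, which was 0.603 and 0.568 reads of Camk2a per read of Kif5a in the same order.

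This share went in different directions by set. In 613s it was 37.1% in the highest bin and 32.1% in the lowest. In 1025s_182s it was 32.7% in the highest bin and 33.2% in the lowest and so differed the other way. In 600s_182s it was 59.0% in the 6 wells of the highest bin and 32.4% in the lowest. The pooled difference of 2.98 points is therefore not a shared feature of the sets. Inside the group of other members, Nrsn1 took 9.21% of member reads in the highest bin and 5.13% in the lowest, while Snap25 took 2.27% and 7.58%, and Adcy1 1.28% and 3.13%.

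Each set alone had all 8 members higher by the same rule of size. The share of all tested genes called higher was 14.9% in 1025s_182s, 9.89% in 600s_182s and 12.7% in 613s, and again nothing is read from the count. The ratio of Ddn ranged most, with a log2 ratio of 6.23 in 1025s_182s, 3.39 in 600s_182s and 3.18 in 613s. Adcy1 had 29.5 CPM in the highest bin of 1025s_182s and 9.61 CPM in the lowest, a log2 ratio of 1.52, which was the smallest of any member in any set. In 613s the 8 ratios lay between 2.58 for Snap25 and 3.57 for Nrgn. That set had the most member reads under 2%, with 1019 CPM for the 8 genes together against 421 CPM in 600s_182s and 501 CPM in 1025s_182s.

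Within the bins of high mt- share, single wells spread widely in Camk2a. At 10% or more, 66 of the 246 wells had at least 2000 CPM of Camk2a, 7 had 1000 to 2000 CPM, 106 had 100 to 1000 CPM, 42 had less and 25 had no read. At 5 to 10% the corresponding numbers were 42, 6, 85, 30 and 9 of 172 wells. Few wells lay between 1000 and 2000 CPM in either bin, but that range is narrower than those beside it. Kif5a had 100 wells at 2000 CPM or above at 10% or more, 12 between 1000 and 2000 and 93 between 100 and 1000. At 5 to 10% it had 48, 14 and 83 wells in these ranges. Under 2%, by contrast, 2 of 461 wells reached 2000 CPM of Camk2a and 283 had reads but under 100 CPM. These ranges were chosen after the values were seen and differ in width, and whether the wells form separate groups was not tested.

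**Figure D2:**
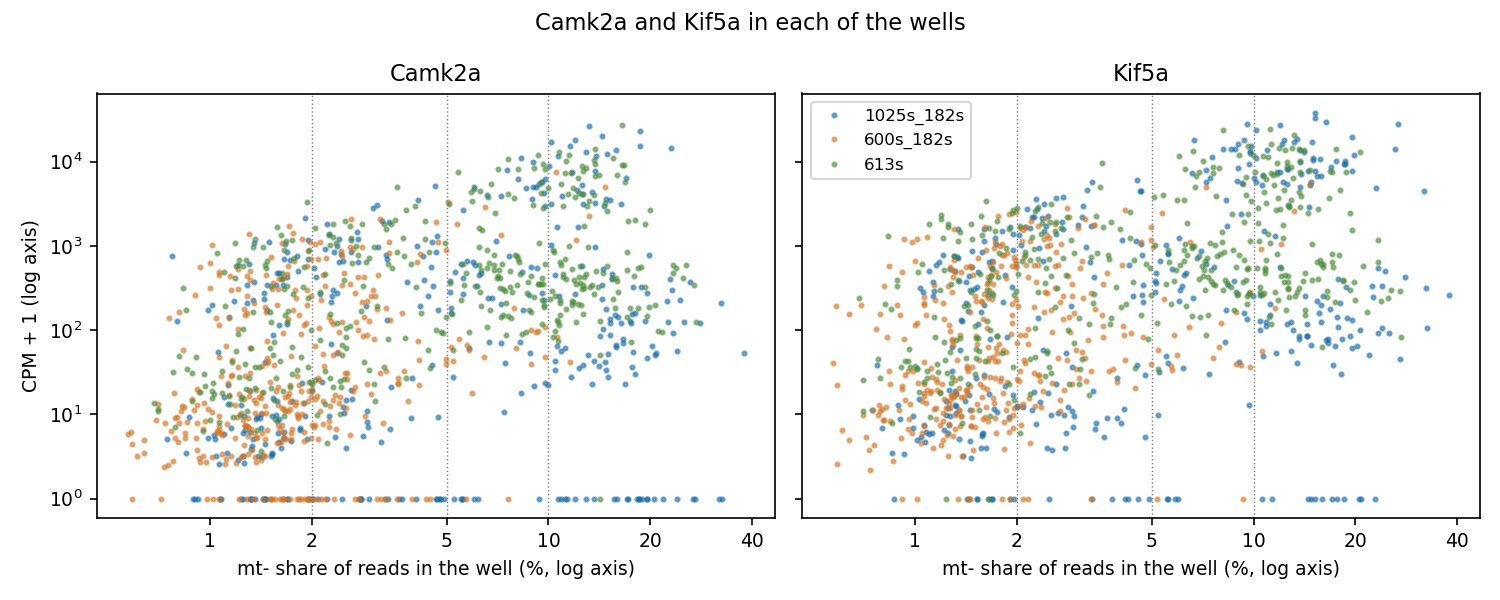
CPM + 1 of Camk2a and Kif5a in each of the 1152 wells (log axis) against the mt- share of the well (log axis), coloured by well set, with dotted lines at 2, 5 and 10%. For Camk2a 6 wells lie at 1000 to 2000 CPM between 5 and 10% and 7 at 10% or more, while for Kif5a 14 and 12 wells lie in that range.

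Depth went with high levels of Camk2a and Kif5a in these wells. At 10% or more, Camk2a passed 1000 CPM in 47 of the 74 wells with at least 50000 reads (63.5%) and in 26 of the 172 wells below that depth (15.1%). Kif5a passed it in 59 of 74 (79.7%) and in 53 of 172 (30.8%). Summed levels followed, with 4624 CPM of Camk2a in the deeper wells of that bin and 1731 CPM in the shallower ones. The shallow wells of high mt- share were thus the poorer ones in these mRNAs. All wells under 2% had at least 50000 reads, so the shallow part of the comparison has no counterpart there.

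Counts of reads per well gave another view than CPM. The median well had 6 reads of Camk2a under 2%, 7 at 2 to 5%, 9 at 5 to 10% and 10.5 at 10% or more. For Kif5a the medians were 18, 19, 14.5 and 18 reads. Total reads per well in the highest bin were lower than in the lowest by a log2 ratio of -3.51. The median of Camk2a went different ways by set, with 17 reads in the highest bin and 23 in the lowest of 613s, 2 and 3 in 1025s_182s, and 68.5 (6 wells) and 4 in 600s_182s. As means per well, Camk2a had 132 reads in the highest bin and 84.1 in the lowest, and Kif5a had 219 and 148. Adcy1 had 5.46 and 9.10 reads per well, Snap25 9.66 and 22.0, and Syt1 1.74 and 2.30, so these 3 were lower per well in the highest bin while higher in CPM. In 613s only Syt1 had more reads per well in the highest bin than in the lowest, by a log2 ratio of 0.14, and Camk2a stood at -0.41 and Kif5a at -0.69. Why the totals differed was not tested.

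**Figure D3:**
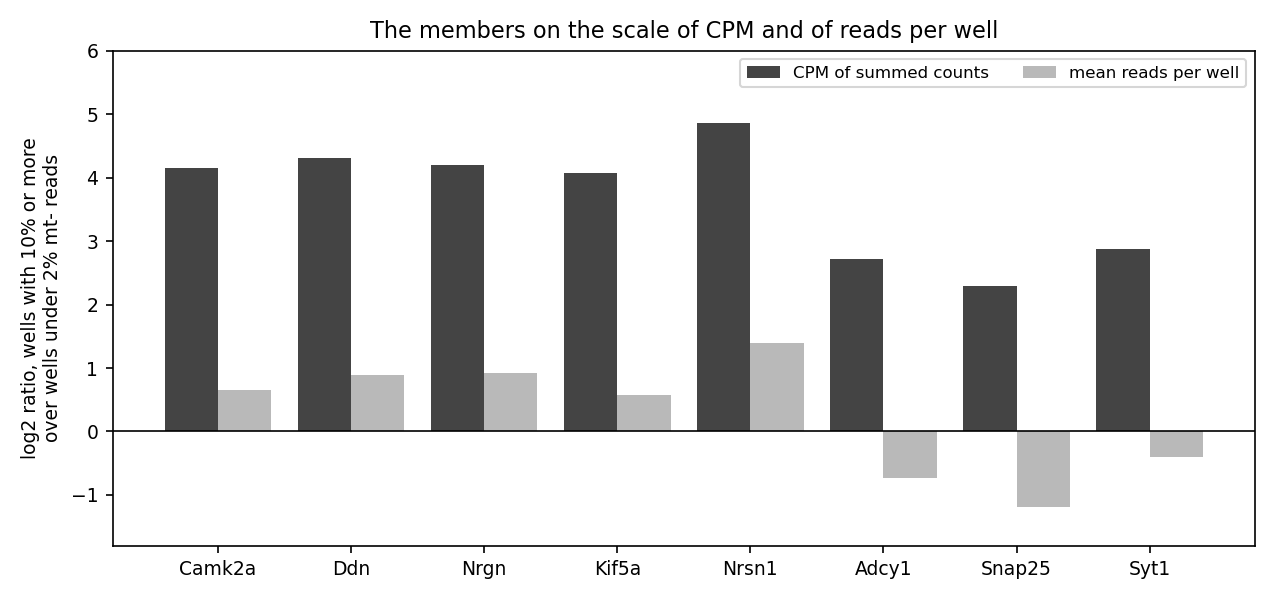
Log2 ratio of wells with 10% or more over wells under 2% mt- reads for each member, as CPM of summed counts (dark bars, 1 CPM added) and as mean reads per well (light bars). Adcy1, Snap25 and Syt1 change sign between the scales, while Nrsn1 is highest on both.

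At matched depth both sums still stood higher in the highest bin, but single members went different ways. Among wells with 50000 to 100000 reads, Camk2a had 92.9 CPM under 2% (8 wells), 147 CPM at 2 to 5% (17 wells), 1682 CPM at 5 to 10% (38 wells) and 4660 CPM at 10% or more (73 wells). Kif5a had 86.6, 158, 3780 and 7318 CPM in the same order. Their median wells had 208 reads of Camk2a and 442 of Kif5a in the highest bin, against 2 and 4.5 in the lowest. The log2 ratio of the highest to the lowest bin was larger in these wells than over all depths for Camk2a (5.63), Kif5a (6.38) and Snap25 (2.61). It was smaller for Nrsn1 (3.17) and Adcy1 (1.34). That of Nrgn (4.02) rests on 5 reads in the lowest bin and that of Ddn on 1, too few to compare with the ratios over all depths. Syt1 had 56.2 CPM in the highest bin and 72.5 CPM in the lowest, where it rested on 46 reads in all, and so differed the other way. The lowest bin is thin at this depth, and 6 of its 8 wells belong to 600s_182s, while 3 of the 73 in the highest do.

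**Figure D4:**
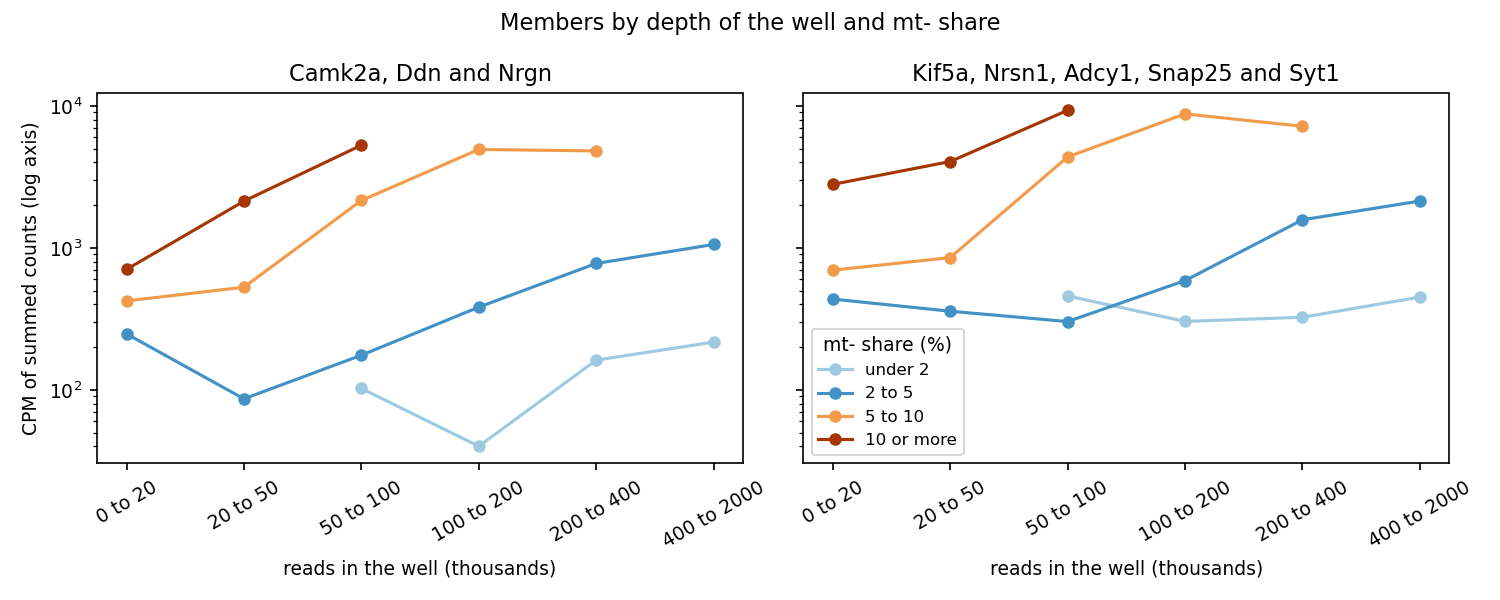
CPM of summed counts (log axis) of the dendritic and the other members against the depth of the well, by bin of mt- share, for cells of the grid with at least 5 wells. Between 50000 and 100000 reads the dendritic sum is 102, 175, 2155 and 5277 CPM from the lowest to the highest bin, and within the bins of 5% or more the sums are larger in deeper wells up to 200000 reads.

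Shares of wells with a read depend on depth and were evened by thinning each well to 10000 reads. After thinning, Camk2a was found in 77.8% of wells in the highest bin (exact 95% interval 72.0 to 82.9) and in 33.6% in the lowest (29.3 to 38.1). Without thinning these shares were 89.8% and 90.5%. Kif5a was found in 87.4% and 44.7% of thinned wells, and in 95.1% and 95.9% without thinning. Thinning left out 7 wells of the highest bin and 0 of the lowest. For the rarer members the thinned shares in the highest and lowest bin were 23.4 and 4.99% for Ddn, 23.4 and 3.69% for Nrgn, 33.5 and 9.54% for Nrsn1, 11.3 and 6.72% for Adcy1, 25.5 and 18.4% for Snap25 and 12.1 and 4.34% for Syt1. Without thinning they were 39.8 and 31.9% for Ddn, 36.2 and 23.0% for Nrgn, 59.8 and 48.8% for Nrsn1, 27.2 and 36.2% for Adcy1, 44.7 and 58.1% for Snap25 and 18.3 and 18.0% for Syt1, so the order of the bins turned round for Adcy1 and Snap25.

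A share of this kind has a floor in cells that should lack the gene. Pericytes are mural cells of capillaries with no neuronal programme, and 39 wells with at least 50000 reads (median 365325) had at least 3 pericyte markers. Thinned to 50000 reads, Camk2a was found in 98.6% of the 74 wells in the highest mt- bin and 56.8% of the 461 wells in the lowest, at median depths of 67505.5 and 430067 reads. Of the 39 pericyte-marker wells, 19 had under 2% mt- reads (median depth 479563), and 36.8% of these held a Camk2a read (exact 95% interval 16.3 to 61.6). Since most wells carried markers of several cell types, this share is a rough guide to the floor. In 7 wells with ependymal markers, Camk2a summed to 10.9 CPM and Kif5a to 7.40 CPM, and 0 reads of Ddn and Nrgn were found. Of these 7 wells 1 had under 2% mt- reads and 6 had 2 to 5%, a bin whose 238 wells of at least 50000 reads had 610 CPM of Camk2a. The pericyte-marker wells had 31.2 CPM of Camk2a under 2% (19 wells), 353 CPM at 2 to 5% (10 wells) and 964 CPM at 5 to 10% (7 wells). Over these bins the level was higher at higher mt- share, and that of the 3 wells at 10% or more is not given.

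The same order held in wells grouped by markers of other cells. In wells with endothelial markers, Camk2a had 3766 CPM in the highest bin (44 wells) and 83.3 CPM in the lowest (59 wells). In wells with fibroblast markers it had 3503 CPM (46 wells) and 40.0 CPM (88 wells), and with microglial markers 3467 CPM (22 wells) and 131 CPM (41 wells). A well can count in several classes, so these values share wells. In each of the 4 bins Camk2a and Kif5a were lowest in the wells with 5 or more classes. In the highest bin Camk2a had 7720 CPM in 11 wells with 0 to 2 classes, 4972 CPM in 32 wells with 3 or 4, and 3209 CPM in 31 wells with 5 or more, at median depths of 69322, 63442 and 69774 reads. Kif5a had 12189, 8413 and 4748 CPM in these wells.

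The members often shared wells when abundant, but the rarer ones did so patchily. Of the 47 wells with at least 50000 reads and 1000 CPM of Camk2a in the highest bin, 43 also had 1000 CPM of Kif5a, 14 of Nrsn1, 12 of Ddn, 4 of Snap25 and 2 each of Nrgn, Adcy1 and Syt1. Across single wells the Spearman rho between Camk2a and Kif5a was 0.48 under 2% (461 wells), 0.73 at 2 to 5% (238), 0.66 at 5 to 10% (84) and 0.15 at 10% or more (74). The median rho over the 3 dendritic pairs was 0.27, 0.34, 0.30 and -0.04 from the lowest to the highest bin. Over the 15 pairs of a dendritic and another member it was 0.17, 0.27, 0.23 and 0.09, and over the 10 pairs of other members 0.12, 0.25, 0.23 and 0.05. These values describe wells that share a library, depth and sparse counts, and carry no p.

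Over the 12 pools of set and mt- bin, the dendritic sum and the sum of the others ran in parallel, with a Pearson r of 0.958 on log2(CPM + 1). Among single members, Kif5a and Nrsn1 were closest, with r = 0.968, and Snap25 was the least like the rest, with r from 0.53 to 0.73. The genes most like the dendritic sum, among 9114 genes with at least 50 CPM in some pool, included Camk2n1 (r = 0.977), Ppp1r9b (0.975), Cplx2 (0.972), Rps24, Lrrc17, Rplp1 and Kxd1 (0.962). Camk2n1 is an inhibitor of the kinase of Camk2a, and Ppp1r9b is a protein of dendritic spines, while Rps24 and Rplp1 encode ribosomal proteins found in all cells. The 8 most like the sum of the others were Kif5b (0.972), Fbxl16 (0.970), Panx2, Celf4, Kif5c, Cplx1, Arf3 and Kxd1 (0.949). The pools share the sets and the bins that chose the members, and shared reads between the kinesins Kif5a, Kif5b and Kif5c were not resolved.

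Other neuronal genes were taken from lists and set beside the members. Of 9 other mRNAs known from dendrites, 8 were higher in the highest bin, 0 were lower, and the median log2 ratio was 2.98. A gene was measured where it had 10 CPM or more in either bin, and 7 of these 9 had it in the lowest. A gene below 10 CPM in the lowest bin could be called higher but not lower. Of all tested genes 11.6% were higher and 51.3% lower, with the median of -1.04 given above. Dlgap3, a scaffold of the postsynaptic density, had 144 CPM in the highest bin and 9.79 CPM in the lowest. Arc, an activity-induced dendritic mRNA, was the lowest of the list, with 153 and 87.6 CPM. Of 11 measured genes of postsynaptic and calcium signalling, 8 were higher and 0 lower (median log2 ratio 1.50), with Grin2b, an NMDA receptor subunit, at 64.2 and 2.88 CPM, Chn1 at 203 and 24.6 CPM, and Gria2, an AMPA receptor subunit, at 144 and 182 CPM.

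Presynaptic and axonal lists each held a lower gene in the pooled wells, where 11.6% of all tested genes were higher and 51.3% lower. Of 13 genes of synaptic vesicles and release, 7 were higher and 1 was lower. Their median log2 ratio was 1.75, and 11 of the 13 reached 10 CPM in the lowest bin. Sv2b, a vesicle protein, had 25.1 CPM in the highest bin and 0.42 CPM in the lowest, and the complexin Cplx1 had 644 and 43.6 CPM, while Sv2a had 54.4 and 199 CPM. Of 11 genes of the neuronal cytoskeleton and axon, 7 were higher and 1 lower (median log2 ratio 1.80), and 9 reached 10 CPM in the lowest bin. By set, this list was 7 higher and 3 lower of 10 measured in 1025s_182s, 6 and 0 of 11 in 600s_182s, and 9 and 0 of 11 in 613s. The neurofilament genes Nefl and Nefm had 406 and 203 CPM in the highest bin, against 17.4 and 11.7 CPM in the lowest. Tubb3, a tubulin also used by immature cells, had 22.7 and 75.9 CPM.

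RNAs of neuronal transcription factors and nuclear RNAs were also among those called higher. Of 8 listed neuronal transcription factors 4 were measured and 3 were higher. Among them were the RNA-binding nuclear protein gene Rbfox3 at 157 CPM in the highest bin and 5.64 CPM in the lowest, and Tbr1 at 24.4 and 0.899 CPM. All 3 reached 10 CPM in the highest bin alone, so the floor favoured the call and nothing is read from the count. Only Mef2c reached it in the lowest bin, and at 48.5 and 33.6 CPM it was called neither higher nor lower. All 4 nuclear long non-coding RNAs were higher (median log2 ratio 1.61), with Meg3 at 434 and 49.8 CPM, but only 2 of them reached 10 CPM in the lowest bin. Of 6 listed genes of inhibitory neurons 3 were measured and all 3 were higher, with Pvalb at 97.7 and 6.60 CPM. Only 1 of these, Gad1, reached 10 CPM in the lowest bin, so nothing is read from that count. The median well had 0 CPM of the inhibitory list in both bins. In 600s_182s alone, with 6 wells in the highest bin, 0 of 3 measured nuclear long non-coding RNAs were higher and 1 was lower, and of 2 measured inhibitory genes 1 was higher and 1 lower. Of 11 respiratory chain genes encoded in the nucleus 3 were higher and 1 was lower, against 11.6% and 51.3% of all tested genes. Their median log2 ratio was 0.04, against -1.04 over all tested genes, and Cox8a had 825 and 265 CPM. Of 8 measured genes of the early response and heat shock, 0 were higher and 4 lower, with Fos at 760 and 820 CPM.

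Paralogs of the members were mixed. Of 21 measured, 9 were higher and 7 were lower, against 11.6% higher and 51.3% lower of all tested genes, and the median log2 ratio was 0.79. No single set had a positive median. It was -1.06 in 1025s_182s (6 higher and 9 lower of 18 measured), -0.48 in 600s_182s (5 and 7 of 17) and -0.02 in 613s (8 and 7 of 18). The medians of all tested genes in these sets were -1.75, -1.25 and -1.11. In the lowest bin 15 of the 21 reached 10 CPM. Those below it, such as Syt2 and Nrsn2, could be called higher but not lower. The kinesin heavy chains Kif5c, of neurons, and Kif5b, of most cells, had 879 and 1255 CPM in the highest bin, against 72.9 and 202 CPM in the lowest. Syt2, the vesicle calcium sensor of fast synapses, had 16.3 and 0.0969 CPM, and Nrsn2 had 34.2 and 2.41 CPM. Snap23 and Snap29, broadly expressed relatives of Snap25, had 16.1 and 2.96 CPM in the highest bin, against 69.8 and 21.3 CPM in the lowest. Reads that match more than 1 relative could be assigned in ways not given in the sources used here, so values of paralogs are uncertain.

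Markers of other cells are set against the 11.6% higher and 51.3% lower of all tested genes. Of 10 astrocyte markers 8 were higher and 0 lower (median log2 ratio 2.15), all 10 reached 10 CPM in both bins, and their summed level per well ran from 0 to 29348 CPM (median 1091) in the highest bin and from 2.38 to 8180 CPM (median 909) in the lowest. Gfap, the astrocyte filament gene, had 243 and 15.4 CPM. By set, astrocyte markers were 7 higher and 2 lower of 10 in 1025s_182s, 4 and 0 of 9 in 600s_182s, and 8 and 0 of 10 in 613s. Of 5 oligodendrocyte markers 1 was higher and 3 lower, with summed levels per well of 212 to 52611 CPM (median 8409) and 8.20 to 30724 CPM (median 2012). Mobp, a myelin gene whose mRNA is carried into oligodendrocyte processes, had 9880 and 1884 CPM, while Mog, a myelin surface protein gene, had 417 and 949 CPM. Oligodendrocyte markers were 1 higher and 4 lower in 1025s_182s, and 1 higher and 1 lower in 600s_182s and in 613s. The pooled count lower lay near the share of all tested genes, so nothing is read from it.

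Precursor and vessel markers are read against the 11.6% higher and 51.3% lower of all tested genes. In single sets 60.3% (1025s_182s), 59.6% (600s_182s) and 52.6% (613s) of tested genes were lower. Of 5 markers of oligodendrocyte precursors 0 were higher and 4 lower, with Pdgfra, the gene of the green reporter line, at 60.1 CPM in the highest bin and 386 CPM in the lowest. By set, these precursor markers were 1 higher and 1 lower in 1025s_182s, 0 and 4 in 600s_182s, and 0 and 2 in 613s. Of 5 endothelial markers 0 were higher and 1 lower, of 5 fibroblast markers 0 higher and 2 lower, of 4 measured pericyte markers 1 higher and 1 lower, of 4 measured smooth muscle markers 0 higher and 1 lower, and of 5 microglial markers 0 in either direction. Of 5 markers of committed precursors 1 was higher and 4 lower. These calls pool the sets, and single sets differed. Endothelial markers were 3 of 5 lower in 1025s_182s and in 613s, and 0 of 4 in 600s_182s, where 1 was higher. Microglial markers were 4 of 5 lower in 613s, 2 of 5 in 600s_182s and 0 of 5 in 1025s_182s. Fibroblast markers were 5 of 5 lower in 1025s_182s, 3 of 5 in 613s and 1 of 4 in 600s_182s. Pericyte markers were 4 of 5 lower in 1025s_182s and 3 of 5 in 613s, with 1 higher in each. Ttr, a choroid plexus gene and the only one of 3 measured in its list that was higher, had 1722 and 127 CPM. The ependymal marker Tmem212 had 0 reads in both bins. The part of these other cells, of depth and of the uneven sets in the members' levels was not tested.

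**Figure D5:**
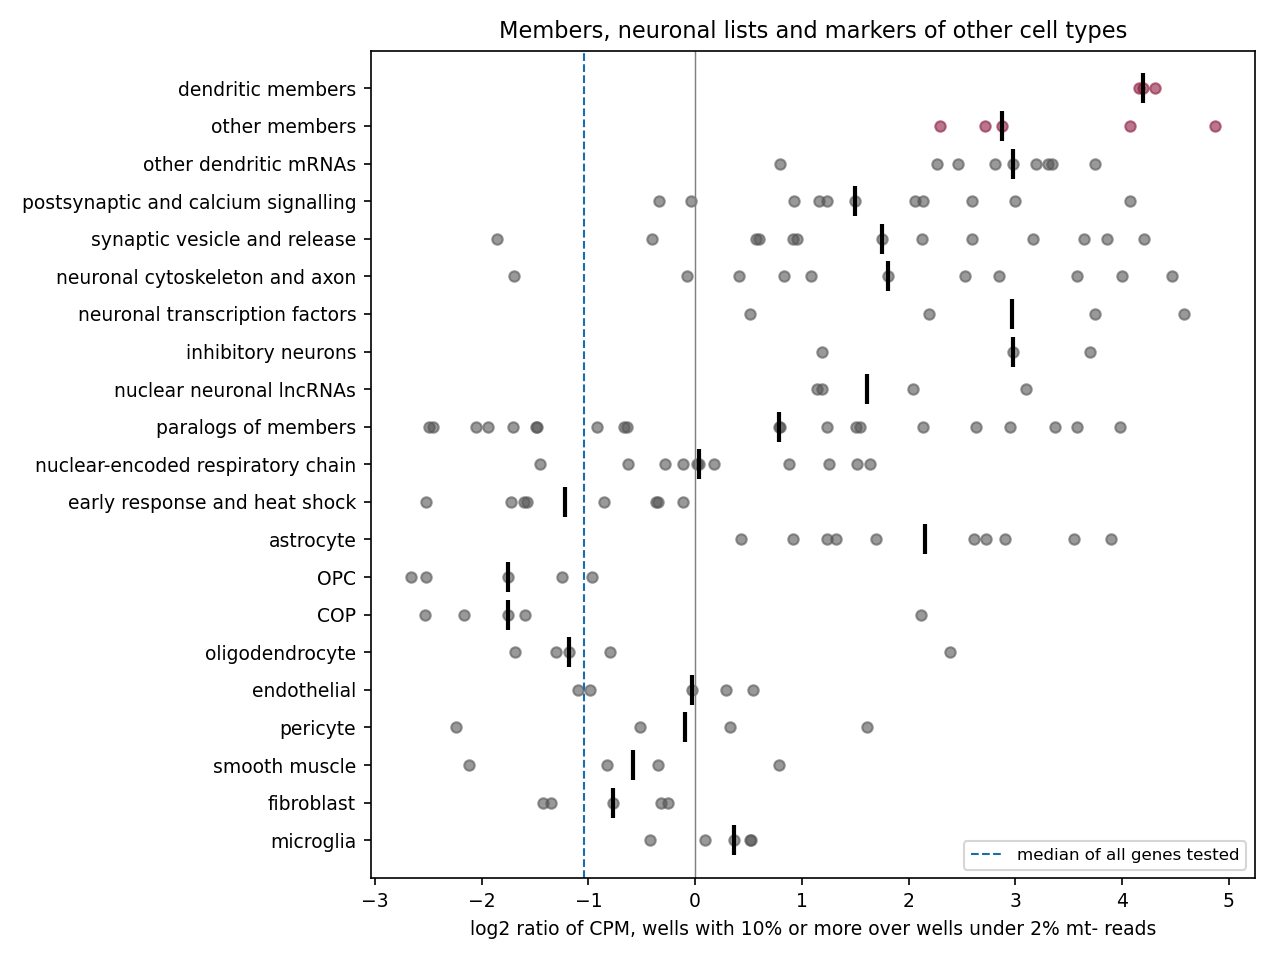
Log2 ratio of CPM (1 CPM added) between wells with 10% or more and wells under 2% mt- reads for the members (red), genes of neuronal and other lists and markers of other cell types (grey), with the median of each list as a black bar and the median of all tested genes, at -1.04, as a dashed line. The medians of most lists lie to the right of that line, those of endothelial (-0.03), fibroblast (-0.77) and microglial (0.37) markers among them. The medians of early response and heat shock genes (-1.22) and of oligodendrocyte precursor (-1.75), committed precursor (-1.75) and oligodendrocyte (-1.19) markers lie to its left. The 3 sets are pooled.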

How the data were processed

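Read counts per gene, whole numbers and not normalized, were used as deposited by the authors. Per the submitters' processing notes, reads were handled with TopHat2 (2.1.1), SAMtools (0.1.18) and the counter featureCounts (Subread 1.4.6-p5), and the notes list GRCm38 and mm10. Which annotation and strand setting the counting used, and how reads of several genes were treated, is not given in the sources used here.

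The table held 46517 genes and 1152 wells, and 0 pairs of wells were identical. Members, lists, markers and alternatives were chosen with earlier results of these data known. Counts were summed over the wells of a bin and scaled to CPM. Intervals are exact 95% Poisson (levels) or Clopper-Pearson (shares) and cover counting error only. Genes named from lists are the 2 with the highest and the 1 with the lowest ratio among those at 10 CPM in either bin, and a few more chosen after their values were seen. The size rule was tested on simulated sums of a bin with counting error only. These lacked the spread between wells, so that test does not cover it. Symbols, exon lengths and coordinates come from GENCODE vM21 (GRCm38). Python 3.11.15, numpy 2.4.6, pandas 2.3.3 and SciPy 1.17.1 were used. One gene that the rule for likeness names is not reported here.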

Additional observations from a re-analysis of the deposited data

How the results depend on the processing

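The log2 ratio of the dendritic sum (4.18) and of the other members (4.00) kept its sign under every alternative run. For the dendritic sum and the others, in that order, it was 4.39 and 4.20 with mt- reads left out of the totals, 4.71 and 4.48 with at least 50000 reads, 3.93 and 3.75 as a mean over wells, 4.23 and 4.06 without the 5 wells richest in member reads, 3.58 and 3.41 for at least 5% against under 5%, and 4.12 and 3.97 with 10 CPM added. With bins from the 13 protein-coding mt- genes it was 3.15 and 2.89. In single sets it was 4.59 and 4.62 (1025s_182s), 4.77 and 3.19 (600s_182s) and 3.35 and 3.03 (613s). Chosen after seeing the data, leaving out a set gave 4.01 and 3.63 (1025s_182s), 3.81 and 3.65 (600s_182s) and 4.77 and 4.70 (613s), wells of 50000 to 100000 reads gave 5.67 and 4.34, and reads per well gave 0.68 and 0.49.

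The dendritic share difference (2.98 points) reversed to -0.42 in 1025s_182s. It was 26.6 in 600s_182s, 5.05 in 613s, 3.69 with at least 50000 reads, 4.21 with the coding mt- genes, 5.91, 2.46 and 1.16 without 1025s_182s, 600s_182s and 613s, and 18.0 at 50000 to 100000 reads. Of 144 values of single members 5 reversed: per well, Adcy1 (-0.74), Snap25 (-1.19) and Syt1 (-0.41), Syt1 at matched depth (-0.36), and Snap25 (-0.47) with the coding mt- genes, where 91 wells reached 10% and 0 of them came from 600s_182s. Without its top well Adcy1 fell to 1.96, and Syt1 to 2.25. The causes were not tested. No value could be had for wells under 50000 reads, since the lowest bin holds 0. No paired analysis was possible because the labels number no groups. With at least 50000 reads, single members moved least for Nrgn (4.45, against 4.20 at all depths) and most for Adcy1 (3.52, against 2.71).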

Other observations

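Within the bin of 2 to 5% mt- reads, the pooled dendritic sum differed by depth. It was 86.5 CPM in 16 wells of 20000 to 50000 reads, 175 CPM in 17 wells of 50000 to 100000, 382 CPM in 93 wells of 100000 to 200000, 776 CPM in 112 wells of 200000 to 400000 and 1056 CPM in 16 wells above that. All 16 wells of the first of these came from 600s_182s, against 2 of the last 16. The other members had 358, 303, 588, 1576 and 2135 CPM in the same order of depth, and the median well of the dendritic sum had 72.3, 38.3, 36.2, 300.01 and 1007 CPM, so neither was in order of depth throughout. The 19 wells under 20000 reads had a dendritic sum of 248 CPM, and 15 of them came from 1025s_182s and 4 from 600s_182s.

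Haemoglobin mRNAs of red blood cells, a sign of blood in a well, were low in both extremes of the mt- share. Of 4 measured erythrocyte genes 3 were higher by the size rule, against 11.6% of all tested genes, with Hbb-bs at 27.4 CPM in wells of 10% or more and 12.3 CPM under 2%. Only 1 of the 4 reached 10 CPM in the lowest bin, so the floor favoured the call and nothing is read from the count. The sets differed, with 0 of 5 measured genes higher and 1 lower in 1025s_182s, 4 of 4 higher in 600s_182s and 2 of 2 in 613s. None of the 4 markers of perivascular macrophages reached 10 CPM in either bin, and they summed to 4.63 CPM in the highest and 11.4 CPM in the lowest.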
